A study of Mus musculus with 47 samples.

Results

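The genes described here are the ligands and receptors of axon guidance: semaphorins with plexins and neuropilins, ephrins with Eph receptors, Slits with Robo receptors, and netrins with Unc5 receptors. They were chosen by gene symbol and then by detection, a probe being kept if its detection p-value was under 0.01 in 4 or more arrays. The array carried 62 such genes on 93 probes, of which 38 genes and 46 probes passed, among 8658 genes and 12482 probes that passed in the whole series. No measured difference between genotypes entered the rule, although the members were chosen with earlier results of these data known. A gene silent in most groups could pass only through the group in which it was high. Dcc was not analysed here.

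Total RNA was measured on 47 Illumina bead arrays from muscle progenitors of E17.5 mouse embryos, a back-muscle fraction that carried Vcam-1 on sorting and lacked CD31, CD45 and Sca1. Of the arrays, 10 were wild type, 4 MyoD+/-, 18 MyoD-/-, 8 Pax3cre/+;DnMamlflox/flox;MyoD-/- (DnMaml;MyoD for short) and 7 Pax3cre/+;Rbpjflox/flox;MyoD-/- (Rbpj;MyoD for short), all on a background mixed from 129/Ola, 129/Sv and C57BL/6. Both compound mutants lack MyoD, a transcription factor that starts muscle differentiation, and carry in addition a Pax3-driven Cre. Rbpj is the DNA-binding factor through which Notch signals reach their target genes, and DnMaml is a dominant-negative form of the coactivator Mastermind-like, which blocks Notch-dependent transcription. Pax3 is active in muscle precursors and also in the dorsal neural tube and neural crest, so Cre acts in more than the muscle lineage. The MyoD-/- arrays serve as the reference for both compound mutants and carry no Cre by their labels. Against them, the effect of the Pax3cre/+ allele cannot be told apart from that of DnMaml or of Rbpj deletion. The labels do not say whether arrays hold separate embryos or pools, so p-values measure the spread between arrays only. In RNA from a sorted population, fewer cells of a type and less RNA per cell cannot be told apart.

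Semaphorins are secreted or membrane-bound ligands that act through plexin receptors, with neuropilins as coreceptors of the secreted class. Ephrins are membrane-bound and signal to Eph receptor tyrosine kinases on neighbouring cells, often with signalling back into the ephrin-bearing cell, while secreted Slits repel cells and axons through Robo receptors. In muscle, ephrins and Eph receptors are known for guiding migrating muscle precursors and for placing nerve endings, and Sema3a for its release by satellite cells in regenerating muscle.

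The sorted cells carried at least 1 member of every family. Detection in all 47 arrays was found for 13 genes: the semaphorins Sema3a, Sema3f, Sema4a, Sema4b and Sema5a, the plexin Plxna2, the neuropilin Nrp1, the ephrins Efna5, Efnb1 and Efnb2, the receptor Epha3, the ligand Slit2 and its receptor Robo1. Both neuropilins passed, as did 6 of 8 ephrins, 13 of 18 semaphorins and 8 of 13 Eph receptors. Plexins were the reverse, since only Plxna2 and Plxnc1 of 8 passed. Of 3 Slits only Slit2 passed, and of the netrins Ntn1 and Ntn4 only Ntn4. The 24 genes that did not pass were Efna2, Efna3, Epha5, Epha6, Epha10, Ephb3, Ephb6, Ntn1, Plxna1, Plxna3, Plxna4, Plxnb1, Plxnb3, Plxnd1, Robo2, Sema3d, Sema3e, Sema3g, Sema4g, Sema6c, Slit1, Slit3, Unc5cl and Unc5d, and 19 of them were detected in 0 arrays. Just inside the threshold lay Sema3c, detected in 4 arrays, and Epha8, detected in 5, and just outside it Sema4g, detected in 3. Between arrays of 1 genotype and chip the 13 genes detected throughout had a residual SD of 0.19 to 0.52 log2 units, with a median of 0.33, beside a median of 0.23 over all 5685 genes detected in every array.

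**Figure D1:**
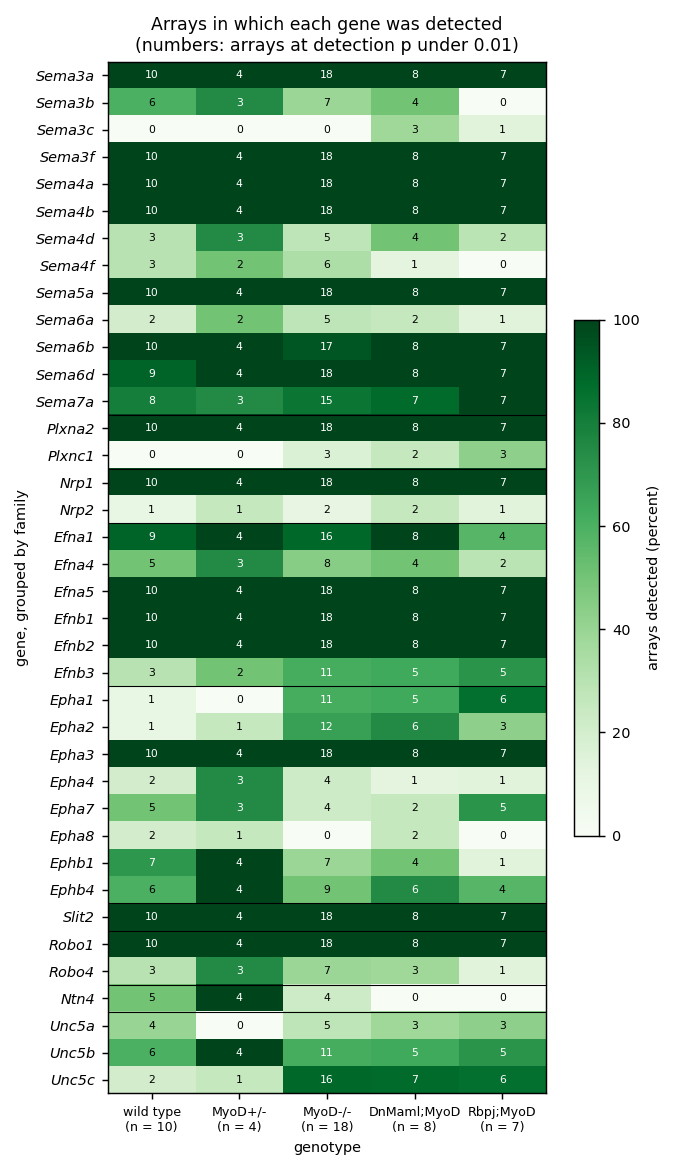
Number of arrays with a detection p under 0.01 for each of the 38 genes (rows, by family) in each genotype (columns, with the number of arrays), the shade giving the percentage of arrays. Unc5c is detected in 2 of 10 wild type arrays and 16 of 18 MyoD-/- arrays, while Sema4f, Sema3b and Ntn4 are detected in 0 of 7 Rbpj;MyoD arrays.

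The probe of the targeted gene Myod1 followed the labels of the groups without MyoD, with a log2 normalised intensity of 11.18 ± 0.26 (SD, n = 10) in wild type, 9.25 ± 0.21 (n = 18) in MyoD-/-, 9.24 ± 0.18 (n = 8) in DnMaml;MyoD and 8.91 ± 0.40 (n = 7) in Rbpj;MyoD. In MyoD+/- it was at 10.86 ± 0.10 (n = 4). Its change from wild type there, -0.30 ± 0.15 (SE), was not called in limma's fit (adjusted p = 0.93), so the probe did not settle the heterozygous label. None of the 3 Rbpj probes was detected in any array, so that deletion could not be checked. Before normalisation the array medians ran from 64.1 to 122 on chips 1 to 3 and from 148 to 250 on chips 4 to 7, and chip was therefore a term of every fit. Of the muscle progenitor markers, Vcam1, Myod1, Itga7, Des, Megf10 and Cxcr4 were detected in all 47 arrays, whereas Pax7 and Myf5 were detected in 2 and Pax3 in 0. Among markers of gated-out or other cells, Ptprc, which encodes CD45, was detected in 0 arrays and Pecam1, which encodes CD31, in 9. Other endothelial markers varied, with Tek, Egfl7 and Esam detected in all 47 and Eng, Emcn and Flt1 in 29, 26 and 22. Cdh5 was detected in 1, and Kdr and Tie1 in 0. The fibroblast genes Pdgfra, Dcn and Col1a1 and the haemoglobin gene Hba-a1 were detected in all 47.

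MyoD-/- and wild type arrays were compared for the effect of losing MyoD. The comparison called 15 of the 38 guidance genes, 10 higher and 5 lower, at a Benjamini-Hochberg adjusted p under 0.05 in limma's fit. That is 39.5% of the members against a background of 23.1% of all genes, with 11.2% called higher and 12% lower. Of the 13 members detected in every array 8 were called, against 24% of all such genes. The median log2 fold change over the members was 0.08 and over all genes -0.01. Scaling to a common median in place of quantile normalisation gave 11 calls higher and 3 lower.

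Sema6b, a membrane-bound semaphorin that binds A-type plexins, fell furthest. In wild type arrays its log2 level ran from 8.13 through a median of 8.66 to 9.01, and in MyoD-/- arrays from 6.10 through 7.28 to 8.20. Of 18 MyoD-/- arrays 16 lay below every wild type array, so the groups met only at their edges. Adjusted for chip, Sema6b fell by 1.44 ± 0.15 on the log2 scale (SE, adjusted p = 9.18e-10), a 2.72-fold difference. A second Sema6b probe gave -1.05 ± 0.14, and the fall appeared on each of the 6 chips that held both genotypes, at -2.40 to -1.10. Sema5a, a membrane-bound semaphorin with thrombospondin repeats, ran from 11.24 through 11.44 to 11.71 in wild type and from 10.56 through 10.94 to 11.58 in MyoD-/-. It was lower in 17 of 18 MyoD-/- arrays than in any wild type array, and fell by 0.47 ± 0.13 (adjusted p = 0.00524).

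Other semaphorins moved the opposite way. Sema4b, a membrane-bound class 4 semaphorin, ran from 9.83 through 10.18 to 10.55 in wild type and from 9.99 through 11.28 to 11.69 in MyoD-/-, where 14 of 18 arrays exceeded every wild type array. Its rise was 1.06 ± 0.21 (adjusted p = 0.000154), with within-chip differences of 0.22 to 1.45. Sema3a, a secreted repellent of motor and sensory axons that acts through Nrp1, ran from 9.09 through 9.56 to 10.30 in wild type and from 9.54 through 10.38 to 10.99 in MyoD-/-. The groups overlapped, with 12 of 18 MyoD-/- arrays above all wild type arrays, and the rise was 0.68 ± 0.13 (adjusted p = 0.000152). Sema3f, the secreted ligand that prefers Nrp2, was at 9.37 ± 0.37 (SD, n = 10) in wild type and 9.96 ± 0.47 (n = 18) in MyoD-/-, a rise of 0.45 ± 0.14 (adjusted p = 0.0149). The second Sema3f probe did not pass, at 0.33 ± 0.14 (adjusted p = 0.0848). Sema3c and Sema3b were called at levels near background. Sema3c was detected in 0 of 10 wild type and 0 of 18 MyoD-/- arrays, with means of 5.10 and 5.69, so no fold is given. Sema3b was at 6.68 ± 0.29 in wild type, detected in 6 of 10 arrays, and 6.50 ± 0.38 in MyoD-/-, detected in 7 of 18.

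Among the receptors, Unc5c, a netrin receptor that mediates repulsion, was called higher. Its level ran from 5.73 through 6.32 to 6.88 in wild type, where 2 of 10 arrays detected it, and from 6.75 through 7.42 to 8.13 in MyoD-/-, where 16 of 18 did. The ranges overlapped between 6.75 and 6.88 only, and the fitted change was 1.16 ± 0.20 (adjusted p = 2.95e-05). Since most wild type arrays did not detect Unc5c, the size of its change is uncertain. Plxna2, a plexin that serves as a receptor for class 3 and class 6 semaphorins, ran from 11.78 through 12.18 to 12.56 in wild type and from 11.22 through 11.72 to 12.67 in MyoD-/-. Most MyoD-/- arrays lay low, 10 of 18 below all wild type arrays and 1 above all of them, and Plxna2 fell by 0.53 ± 0.08 (adjusted p = 4.15e-06). Robo1, the Slit receptor detected in every array, was at 11.29 ± 0.31 and 11.56 ± 0.21, a small rise of 0.28 ± 0.09 (adjusted p = 0.0171). Nrp1, the coreceptor of Sema3a, did not pass, at 0.23 ± 0.19 (95% interval -0.15 to 0.61, adjusted p = 0.415).

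In the ephrin and Eph families 2 ligands rose and receptors changed both ways. Efnb2, a transmembrane ephrin, ran from 6.95 through 7.69 to 8.36 in wild type and from 7.48 through 8.36 to 9.23 in MyoD-/-, with 9 of 18 MyoD-/- arrays above all wild type arrays. It rose by 0.65 ± 0.14 (adjusted p = 0.00063). Efna5, a lipid-anchored ephrin, ran from 10.25 through 10.58 to 11.91 and from 10.76 through 11.11 to 11.98, and rose by 0.55 ± 0.13 (adjusted p = 0.0022). The highest wild type value of Efna5 came from 1 array, the next being 10.88. Epha1 and Epha2, receptors for A-type ephrins, were each detected in 1 of 10 wild type arrays, and in 11 and 12 of 18 MyoD-/- arrays. Their means were 5.79 ± 0.45 and 6.58 ± 0.50 for Epha1, called higher with a fitted change of 0.64 ± 0.19 (adjusted p = 0.0115), and 6.11 ± 0.50 and 6.75 ± 0.45 for Epha2, with 0.60 ± 0.20 (adjusted p = 0.0215). With wild type near background for both, the sizes of these changes are uncertain. Epha7, a further A-type receptor, went down from 6.68 ± 0.52 to 6.14 ± 0.50, and fell by 0.50 ± 0.16 (adjusted p = 0.0221). It was detected in 5 of 10 wild type and 4 of 18 MyoD-/- arrays, so the size of this fall is uncertain too. The further probes of Epha1 and Epha7 were detected in 0 arrays. On chips 1 and 2 the Epha7 difference was -0.86, and on chips 4 to 7 it was -0.10, with no call for the difference between these (adjusted p = 0.212).

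**Figure D2:**
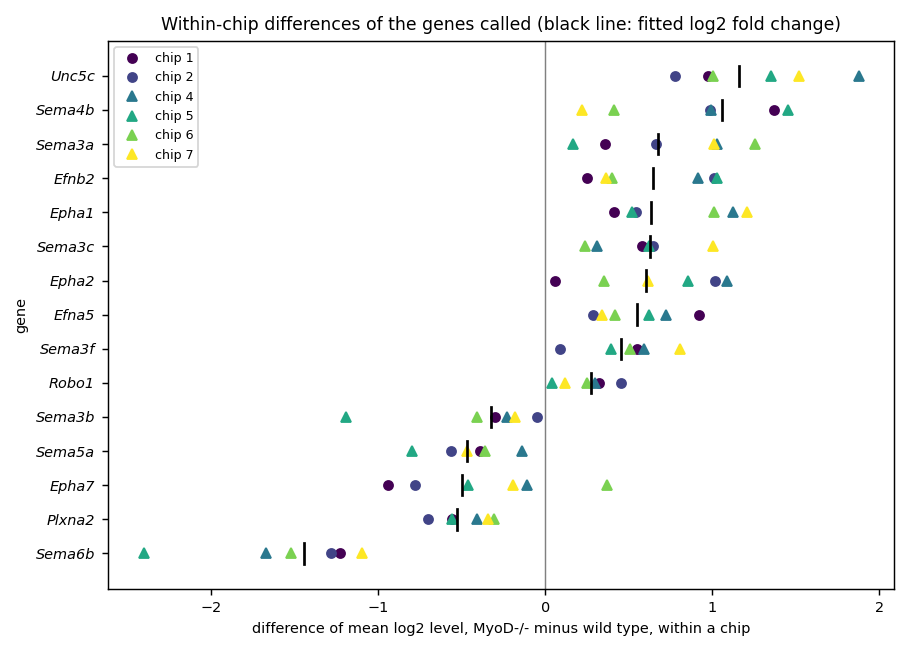
Difference of the mean log2 level between MyoD-/- and wild type within each chip (x axis, log2 units) for the 15 genes called (y axis), circles for chips 1 and 2, triangles for chips 4 to 7, black bars for the fitted change. Every chip has the sign of the fit for 14 of the genes, and for Epha7 chip 6 stands at 0.37 against a fit of -0.50.

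The calls of Sema6b, Unc5c, Sema3a, Sema4b, Efnb2 and Efna5 held under every alternative that could test them and with each array left out. So did that of Sema3c, from which nothing is read, since no array of either genotype detected it. The other 8 were lost under at least 1 alternative. That of Sema3b was lost when any 1 of 27 arrays was left out, that of Epha2 without wild type replicate 7 (adjusted p = 0.0561) and that of Epha7 without wild type replicate 4 (adjusted p = 0.055). Markers of differentiated muscle moved in the same comparison, with 7 of 9 lower, 1 higher (Myh8) and a median change of -0.77. Their summed normalised intensity, 6932 to 22079.8 in wild type and 17626 to 31669 in MyoD-/-, ran the other way from that median. Ngfr was lower among 2 Schwann cell markers, Gap43 higher among 4 neuronal ones, and Acta2 and Tagln lower among 4 smooth muscle ones. Of 8 fibroblast markers 2 were higher (Osr1 and Osr2), and of 7 endothelial markers 2 were lower (Egfl7 and Esam). Of 11 muscle progenitor markers Sdc4 and the sort marker Vcam1 were higher, and Heyl, Itga7, Megf10 and Myod1 lower. Their part in these results was not tested.

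MyoD+/- arrays were compared with wild type to see whether 1 lost copy of MyoD is enough. No guidance gene was called by limma, and 0% of all genes were called. At an unadjusted p under 0.05 there were 0 of 38 members and 412 of 8658 genes. The members' changes ran from -0.48 to 0.51. Sema6b stood at 8.50, 9.15, 8.87 and 8.52 in the 4 MyoD+/- arrays, within or just above the wild type range, and Unc5c at 5.99, 5.65, 6.39 and 6.05. The 95% intervals of these differences, -0.38 to 0.55 for Sema6b and -0.87 to 0.37 for Unc5c, do not reach the changes seen in MyoD-/-. Of the 15 genes called in MyoD-/-, 10 had a MyoD+/- interval that left out the MyoD-/- change. This count takes the MyoD-/- change as a fixed value, and MyoD-/- was not tested against MyoD+/-. For Epha2 the margin was slight, with an upper limit of 0.604 against 0.605. The 10 also include Sema3c, detected in 0 of these arrays, and Unc5c and Epha1, whose sizes are uncertain as that of Epha2 is. For the other 5, Sema4b, Sema5a, Epha7, Robo1 and Sema3b, the interval held it, so a change of that size was not resolved with 4 arrays.

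The DnMaml;MyoD mutant was set against MyoD-/-, from which it differs by DnMaml, the block of Notch-dependent transcription, and by the Pax3cre/+ allele. Of 38 guidance genes 7 were called, 5 higher and 2 lower, which is 18.4% against a background of 11.9% of all genes, with 6.68% higher and 5.17% lower. Among the members detected in every array 3 of 13 were called, against 11.7% of all such genes. The median change was -0.03 over the members and -0.01 over all genes. Under the common-median scaling 5 were called higher and 1 lower. This comparison, the preceding one of MyoD-/- with wild type and the following one of Rbpj;MyoD share the 18 MyoD-/- arrays, so a chance deviation of those arrays enters all of them.

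Sema6b was the member with the largest change here as well, upward. Its level in DnMaml;MyoD ran from 7.91 through 8.74 to 9.10, and 7 of 8 arrays exceeded every MyoD-/- array. The rise was 1.46 ± 0.16 (adjusted p = 1.14e-08), or 2.76-fold, and a second probe gave 1.13 ± 0.15. Side by side, the group means of Sema6b were 8.66 ± 0.26 (SD, n = 10) in wild type, 7.42 ± 0.57 (n = 18) in MyoD-/- and 8.68 ± 0.35 (n = 8) in DnMaml;MyoD. Markers of differentiated muscle were likewise higher, 8 of 9 with 1 lower and a median change of 1.32, at a summed intensity of 20122.5 to 26328 against 17626 to 31669 in MyoD-/-. Their part in the Sema6b result was not tested.

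A ligand and 2 members of the ephrin system rose in DnMaml;MyoD. Slit2, the secreted ligand of Robo receptors, ran from 9.60 through 9.85 to 10.48 in MyoD-/- and from 10.37 through 10.60 to 10.93 in DnMaml;MyoD. The groups overlapped in a narrow band, with 6 of 8 DnMaml;MyoD arrays above all MyoD-/- arrays, and the rise was 0.64 ± 0.12 (adjusted p = 0.000188). Epha3, a receptor for A-type ephrins and above all Efna5, ran from 9.44 through 9.87 to 10.41 and from 10.12 through 10.72 to 11.17. Its rise of 0.80 ± 0.15 (adjusted p = 0.000151), seen in 7 of 8 arrays above all MyoD-/- arrays, was met by 0.63 and 0.75 at further Epha3 probes. Efnb1, a transmembrane ephrin encoded on the X chromosome, ran from 8.15 through 8.83 to 9.54 and from 8.80 through 9.39 to 9.86, and rose by 0.62 ± 0.12 (adjusted p = 0.000195). Only 3 of 8 Efnb1 values exceeded all MyoD-/- values, but the difference was above 0 on each of 6 chips, at 0.39 to 0.97.

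The promoters of Slit2, Epha3 and Efnb1 are shown because these 3 genes were called higher in both compound mutants. The windows run from 250 bases before to 50 after the RefSeq transcript start, in build GRCm38.p6, and are written 5′ to 3′ on the strand of the gene, with capitals marking TGGGAA, the core of the site bound by RBPJ, on either strand. They lie at chr5:47982905-47983204 on the plus strand (Slit2), chr16:63864126-63864425 on the minus strand (Epha3) and chrX:99135811-99136110 on the plus strand (Efnb1).
Slit2: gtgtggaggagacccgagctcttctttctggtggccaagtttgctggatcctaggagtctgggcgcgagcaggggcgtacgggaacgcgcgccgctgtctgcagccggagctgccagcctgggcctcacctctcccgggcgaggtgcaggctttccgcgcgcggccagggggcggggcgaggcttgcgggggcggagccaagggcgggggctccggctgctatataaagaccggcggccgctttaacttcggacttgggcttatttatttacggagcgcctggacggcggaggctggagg
Epha3: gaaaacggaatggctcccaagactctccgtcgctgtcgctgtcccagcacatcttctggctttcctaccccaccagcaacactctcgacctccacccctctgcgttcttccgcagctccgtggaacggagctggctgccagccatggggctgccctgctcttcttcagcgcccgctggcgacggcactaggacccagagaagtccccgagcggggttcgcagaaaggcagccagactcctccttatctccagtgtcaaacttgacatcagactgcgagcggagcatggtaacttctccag
Efnb1: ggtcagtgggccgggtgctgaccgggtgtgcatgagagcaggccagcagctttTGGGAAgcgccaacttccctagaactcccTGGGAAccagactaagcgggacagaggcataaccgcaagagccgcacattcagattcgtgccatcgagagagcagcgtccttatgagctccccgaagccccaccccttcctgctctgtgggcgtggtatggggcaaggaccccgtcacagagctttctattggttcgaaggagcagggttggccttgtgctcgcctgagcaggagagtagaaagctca
Efnb1 holds 2 matches, 197 and 168 bases before the start, and the windows of Slit2 and Epha3 hold 0. RefSeq promoters were matched to 34 of the 38 members, with 44 windows in all, and Efnb3, Sema3b, Sema3f and Sema6a had no entry. TGGGAA was found in 10 of these 44 windows (22.7%) and in 25.6% of all 32851 mouse windows of the same length. Besides Efnb1 the members with a match were Epha4, Epha7, Ntn4, Plxnc1, Sema4a, Sema4d, Sema5a and Sema6d. CAGCTG, an E-box of the kind bound by MyoD, which reads the same on both strands, was found in 3 of 44 windows (6.82%), those of Robo4, Sema4d and Sema7a, and in 16.3% of all windows. A match describes the letters in the window and does not mark a bound site.

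The remaining calls of DnMaml;MyoD against MyoD-/- were at low levels or close to the threshold. Sema3c, a secreted semaphorin, passed detection in 3 of 8 arrays of DnMaml;MyoD and in 0 of 18 of MyoD-/-. Its means were 6.30 ± 0.50 and 5.69 ± 0.43, and its adjusted p was 0.00915. Sema3c entered the tested genes only through 3 DnMaml;MyoD arrays and 1 Rbpj;MyoD array, so its place among the 5 higher calls is no support for them. No fold is given, because the mean of the brighter group did not exceed the background bound, the mean over arrays of the higher of the lowest detected signal and the probe's own value. Sema6d, a transmembrane ligand of Plxna1, ran from 6.88 through 7.59 to 8.42 in MyoD-/- and from 6.49 through 7.14 to 8.15 in DnMaml;MyoD, and fell by 0.49 ± 0.15 (adjusted p = 0.0233). The groups overlapped, with 3 of 8 arrays below all MyoD-/- arrays. Sema4f, a membrane-bound class 4 semaphorin, was detected in 6 of 18 and 1 of 8 arrays, with means of 6.28 and 5.73, and was called lower (adjusted p = 0.0324). It lay near background in both groups, so no size is given. The calls of Sema6b, Epha3, Slit2 and Efnb1 held throughout. That of Sema6d was lost without DnMaml;MyoD replicate 6, 7 or 8 (highest adjusted p = 0.0882). That of Sema4f was lost without MyoD-/- replicate 2, 5 or 17 or DnMaml;MyoD replicate 1, 3, 5, 6, 7 or 8 (highest adjusted p = 0.0738). Both Schwann cell markers tested, Mbp and Ngfr, were higher in DnMaml;MyoD, at a summed intensity of 845 to 2054 against 305 to 996, while S100b, Cdh19 and Foxd3 were detected in 0 arrays. Of 7 endothelial markers Egfl7 and Eng were higher, with Kdr and Tie1 detected in 0 arrays, and of 8 fibroblast markers Dcn was higher. Des was higher and Cxcr4, Heyl, Itga7, Msc and Vcam1 were lower among 11 muscle progenitor markers, and Gap43 was higher among 4 neuronal ones. Their part in these results was not tested.

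**Figure D3:**
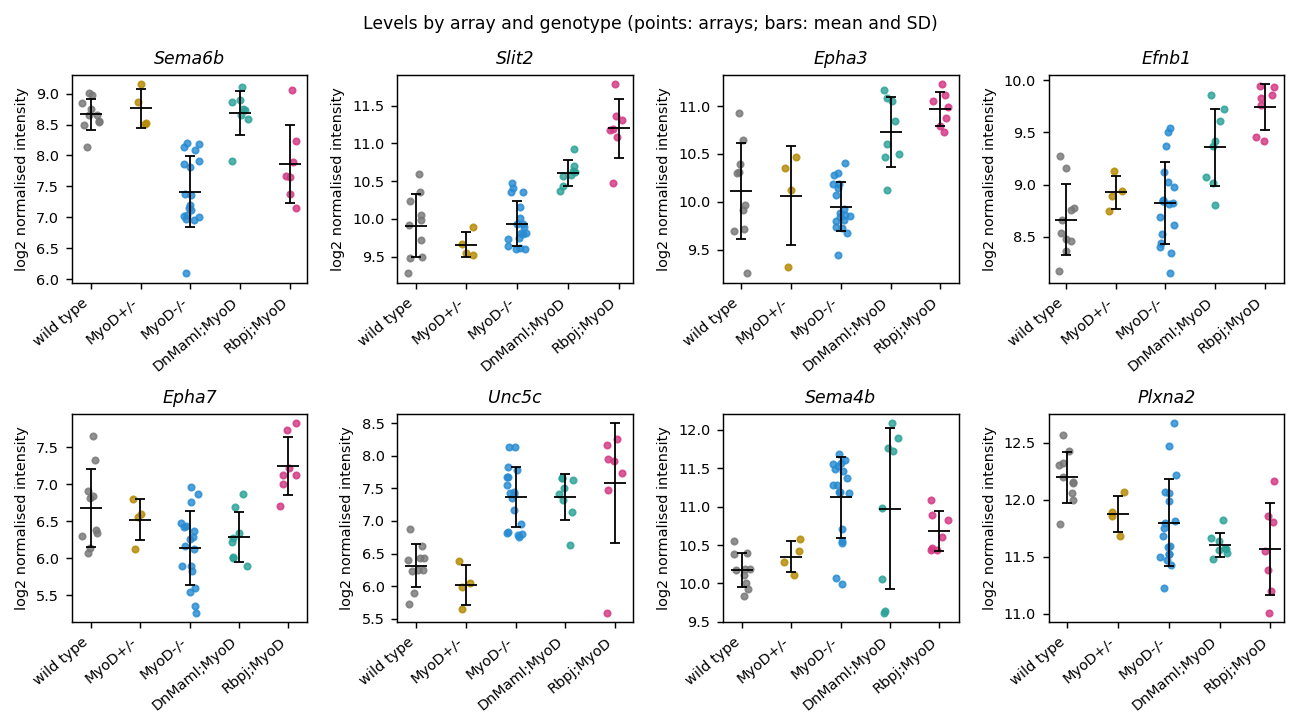
Log2 normalised intensity (y axis) of 8 guidance genes in each array (points) of the 5 genotypes (x axis), with the mean and SD as bars, each panel on its own scale. Sema6b is low in MyoD-/- and stands at 7.91 to 9.10 in DnMaml;MyoD, Slit2, Epha3 and Efnb1 are highest in the compound mutants, and Epha7 is highest in Rbpj;MyoD.

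The Rbpj;MyoD mutant was set against MyoD-/-, from which it differs by the deletion of the Notch effector Rbpj and by the Pax3cre/+ allele. It called 15 of 38 guidance genes, 8 higher and 7 lower, or 39.5% against a background of 24.5% of all genes, with 12.2% higher and 12.3% lower. Of the 13 members detected in every array 8 were called, against 24.6% of all such genes. The median change was 0.02 over the members and -0.02 over all genes. Under the common-median scaling 6 were called higher and 7 lower.

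Slit2 changed most among the members. It ran from 10.47 through 11.19 to 11.79 in Rbpj;MyoD against 9.60 through 9.85 to 10.48 in MyoD-/-, with 6 of 7 arrays above all MyoD-/- arrays. The rise was 1.35 ± 0.13 (adjusted p = 8.16e-11), or 2.54-fold, and was 1.21 to 1.52 on the 5 chips that held both genotypes. Robo1 was at 11.90 ± 0.24 (n = 7) against 11.56 ± 0.21 (n = 18) and rose by 0.32 ± 0.10 (adjusted p = 0.012), a call lost under common-median scaling (adjusted p = 0.438) and without chip 3 or chip 5. Robo4, a Robo family member found mainly in endothelium, went the other way, from a range of 5.56 through 6.74 to 7.60 down to 5.14 through 6.17 to 6.95, and was called lower (adjusted p = 0.00514). The Robo4 difference was below 0 on 4 of 5 chips and ran from -2.05 to 0.64. No fitted size is given, since 1 of 7 Rbpj;MyoD arrays and 7 of 18 MyoD-/- arrays detected the gene. Of 7 endothelial markers 0 were lower and Eng was higher, at a summed intensity of 2669 to 4169.9 against 2557 to 5197.

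Eph receptors rose and fell by gene. Epha3 ran from 10.73 through 10.99 to 11.23 in Rbpj;MyoD, where all 7 arrays lay above every MyoD-/- array. Its rise was 1.04 ± 0.16 (adjusted p = 1.87e-06), with 0.70 and 0.85 at the further Epha3 probes. Epha7 ran from 6.71 through 7.13 to 7.82 against 5.27 through 6.21 to 6.96, with 6 of 7 arrays above all MyoD-/- arrays. It was called higher with a fitted change of 1.15 ± 0.18 (adjusted p = 4.85e-06). Since 5 of 7 Rbpj;MyoD and 4 of 18 MyoD-/- arrays detected Epha7, the size of this change is uncertain. The further Epha7 probes, detected in 0 arrays, could not be set beside it. Efnb1 ran from 9.42 through 9.83 to 9.95, with 5 of 7 arrays above all MyoD-/- arrays, and rose by 0.75 ± 0.12 (adjusted p = 1.08e-05). Efna1, a lipid-anchored ephrin that binds Epha2, was at 6.62 ± 0.84 in Rbpj;MyoD, where 3 of 7 arrays lay below every MyoD-/- array, against 7.47 ± 0.40, and fell by 0.72 ± 0.17 (adjusted p = 0.00129). It was detected in 4 of 7 and 16 of 18 arrays, and its call was lost without chip 3 (adjusted p = 0.189). Ephb1, a receptor for B-type ephrins, was at 5.97 ± 0.44 against 6.45 ± 0.44 and was called lower (adjusted p = 0.0201). It was detected in 1 of 7 and 7 of 18 arrays, so no size is given. Thus within the ephrin system Epha3, Epha7 and Efnb1 were called higher, and Efna1 and Ephb1 lower.

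Semaphorins were split as well. Sema4a, a membrane-bound class 4 semaphorin, ran from 8.96 through 10.62 to 11.35 in Rbpj;MyoD against 8.20 through 9.56 to 10.39, with 4 of 7 arrays above all MyoD-/- arrays, and rose by 0.95 ± 0.22 (adjusted p = 0.00108). Sema5a ran from 10.77 through 11.69 to 12.04 against 10.56 through 10.94 to 11.58, and rose by 0.62 ± 0.14 (adjusted p = 0.000949), with 0.54 at its second probe. Its wild type, MyoD-/- and Rbpj;MyoD means were 11.46, 10.97 and 11.58. Sema3a stood at 10.84 ± 0.25 in Rbpj;MyoD and 10.35 ± 0.39 in MyoD-/-, a rise of 0.48 ± 0.15 (adjusted p = 0.0145). Sema6b did not pass, at 0.26 ± 0.17 (95% interval -0.08 to 0.61, adjusted p = 0.275). Plxna2 fell by 0.34 ± 0.09 (adjusted p = 0.00508), from 11.80 ± 0.38 to 11.57 ± 0.40. Sema4f, Sema3b and Ntn4, a netrin of basement membranes, were lower and were detected in 0 of 7 Rbpj;MyoD arrays. For Sema4f the means were 5.07 in Rbpj;MyoD and 6.28 in MyoD-/- (adjusted p = 0.000192), for Sema3b 6.03 and 6.50 (adjusted p = 0.000816), and for Ntn4 5.83 and 6.14 (adjusted p = 0.0351). No fold is given for these 3, since their MyoD-/- means did not exceed the same bound.

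The calls of Slit2, Epha3, Epha7, Efnb1 and Sema5a held under every alternative that could test them and with each array left out. Those of Sema4f and Sema3b held as well, but nothing is read from that. Both genes passed the detection filter only through other genotypes, with 0 of 7 Rbpj;MyoD arrays detected. The other 8 calls were lost under at least 1 alternative. Those lost by leaving out 1 array were Sema3a without Rbpj;MyoD replicate 5 (adjusted p = 0.0832), Ephb1 without Rbpj;MyoD replicate 3, 4 or 5 (highest adjusted p = 0.0868), and Ntn4 without MyoD-/- replicate 8, 11, 14 or 17 or Rbpj;MyoD replicate 2, 4, 5, 6 or 7 (highest adjusted p = 0.16). Fibroblast markers moved in this comparison, with 7 of 8 higher (Pdgfra, Col1a1, Col3a1, Lum, Dcn, Osr1 and Osr2), 0 lower and a median change of 1.07. Their summed intensity was 64641 to 102368 in Rbpj;MyoD against 33379 to 81753 in MyoD-/-, while Postn and Tcf21 were detected in 1 and 2 of 47 arrays. Of 11 muscle progenitor markers 10 were lower and 1 higher (Des), at 38131 to 52659.5 against 56195 to 75783. Neuronal markers Gap43, Stmn2 and Nefm were higher, 3 of 4 tested, with Tubb3, Snap25 and Elavl4 detected in 0 arrays, and Ngfr was higher among Schwann cell markers. All 4 erythroid markers were lower, at 4909 to 23238 against 9794 to 52527. Of 4 smooth muscle markers Pdgfrb was higher and Acta2 and Tagln lower. Of 9 differentiated muscle markers Ttn was higher and Myh8, Mymk and Myog lower, with a median change of -0.45, and Scx was lower among 4 tendon and cartilage markers. Their part in the changes of Slit2, Epha3 and the other members was not tested.

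**Figure D4:**
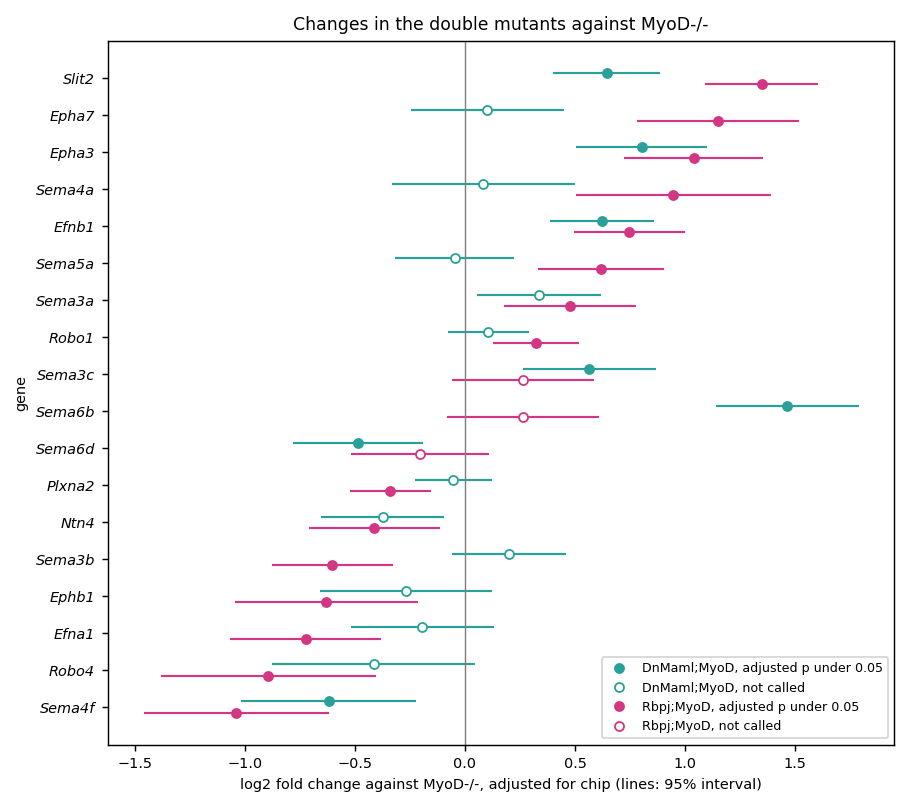
Log2 fold change against MyoD-/- with its 95% interval (x axis) for the 18 genes called in either compound mutant (y axis), DnMaml;MyoD in green and Rbpj;MyoD in pink, filled where the adjusted p is under 0.05. Slit2, Epha3 and Efnb1 are filled and positive in both, Sema6b only in DnMaml;MyoD at 1.46, and Epha7 only in Rbpj;MyoD at 1.15, while the values of Sema3c, Sema4f, Sema3b, Ntn4, Robo4, Ephb1, Epha7 and Efna1, among others, rest partly on arrays without detection.

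The compound mutants were then compared directly, since a call in 1 and not in the other does not show that they differ. Rbpj;MyoD against DnMaml;MyoD called 7 of 38 guidance genes, 5 higher and 2 lower, or 18.4% against a background of 6.79% of all genes, with 3.2% higher and 3.59% lower. Among the members detected in every array 4 of 13 were called, against 5.96% of all such genes. Under the common-median scaling 2 were called higher and 2 lower. The 2 genotypes met on chips 4 to 7 only.

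Sema6b separated the mutants most. It ran from 7.16 through 7.67 to 9.06 in Rbpj;MyoD against 7.91 through 8.74 to 9.10 in DnMaml;MyoD, with 5 of 7 arrays below all DnMaml;MyoD arrays, and was lower by -1.20 ± 0.21 (adjusted p = 0.000104), and its second probe was called as well (adjusted p = 0.000617). Differentiated muscle markers were lower in the same comparison, 7 of 9 with a median change of -1.46, and their part was not tested. Epha7 was higher in Rbpj;MyoD by 1.05 ± 0.22 (adjusted p = 0.00156) and Slit2 by 0.70 ± 0.16 (adjusted p = 0.00241), each with 6 of 7 arrays above all DnMaml;MyoD arrays. The size for Epha7 is uncertain, since 5 of 7 Rbpj;MyoD and 2 of 8 DnMaml;MyoD arrays detected it. Slit2 thus rose in both mutants against MyoD-/- and rose further in Rbpj;MyoD. For Epha3 and Efnb1 the differences between the mutants did not pass, at 0.24 (95% interval -0.15 to 0.62) and 0.12 (-0.18 to 0.43).

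Sema5a was higher in Rbpj;MyoD by 0.67 ± 0.17 (adjusted p = 0.0112), with 5 of 7 arrays above all DnMaml;MyoD arrays. Nrp1, called in no other comparison, ran from 11.16 through 11.60 to 11.81 in Rbpj;MyoD and from 10.35 through 10.79 to 11.67 in DnMaml;MyoD, and differed by 0.93 ± 0.26 (adjusted p = 0.02). Its second probe gave 1.02 ± 0.25 (adjusted p = 0.00862), and 3 of 7 Rbpj;MyoD arrays exceeded all DnMaml;MyoD arrays. Sema4a was higher by 0.86 ± 0.27 (adjusted p = 0.0407), and Sema3b was at 6.03 ± 0.39 in Rbpj;MyoD, with 0 of 7 arrays detected, against 6.57 ± 0.41 with 4 of 8 (adjusted p = 0.00113). The calls of Sema6b, Epha7 and Slit2 held throughout. Those of Sema5a and Nrp1 were lost without Rbpj;MyoD replicate 7 (adjusted p = 0.0614 for Sema5a), and that of Nrp1 also without DnMaml;MyoD replicate 7 (adjusted p = 0.0516). That of Sema4a was lost when any 1 of 11 arrays was left out (highest adjusted p = 0.168). Other processing and chip choices mattered too. The Nrp1 call was lost under 10 of 20 alternatives, including common-median scaling (adjusted p = 0.0969) and chips 4 to 7 only (adjusted p = 0.0658). The Sema4a call was lost under 14 of 20, that of Sema5a under 5 of 20 and that of Sema3b under 2 of 19. Of 8 fibroblast markers 4 were higher in Rbpj;MyoD, at 64641 to 102368 against 48383 to 81339. Of 4 erythroid markers 3 were lower, with a median change of -1.77, and of 11 muscle progenitor markers Itga7, Megf10 and Myod1 were lower. Egfl7, Mbp, Acta2 and Scx were lower in the endothelial, Schwann cell, smooth muscle and tendon lists. The part of these markers was not tested.

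**Figure D5:**
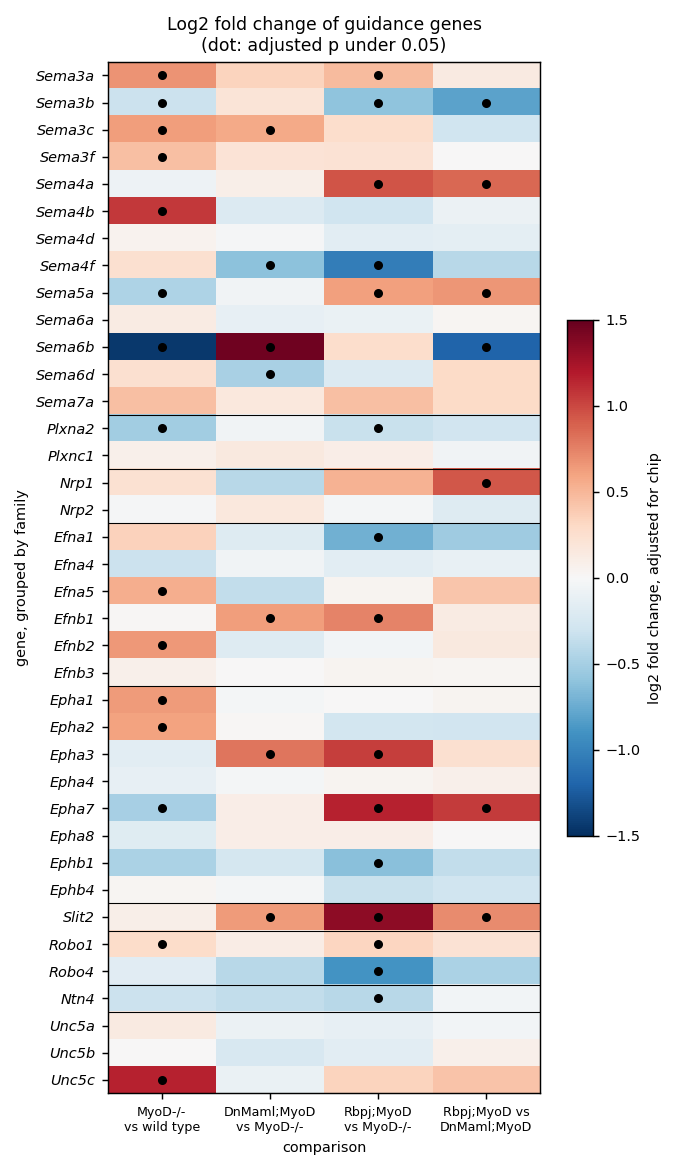
Chip-adjusted log2 fold change (colour, blue lower and red higher) of the 38 guidance genes (rows, by family) in 4 comparisons (columns), a dot marking an adjusted p under 0.05. The first 3 columns share the MyoD-/- arrays, and Sema6b runs from -1.44 through 1.46 and 0.26 to -1.20 across the columns.

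In all, 26 of the 38 genes (68.4%) were called in at least 1 comparison and 12 in none, beside 43.1% of all 8658 genes called in at least 1. The latter were Sema4d, Sema6a and Sema7a among the semaphorins, Plxnc1 and Nrp2 among their receptors, the ephrins Efna4 and Efnb3, the Eph receptors Epha4, Epha8 and Ephb4, and the netrin receptors Unc5a and Unc5b. In MyoD-/- against wild type the genes not called lay between -0.48 and 0.45, in DnMaml;MyoD between -0.41 and 0.34, and in Rbpj;MyoD between -0.33 and 0.52. Absence of a call does not show that these genes were alike between genotypes. For Sema7a, a lipid-anchored semaphorin, the 95% interval in MyoD-/- against wild type was -0.07 to 0.96. For Nrp2, the coreceptor preferred by Sema3f, it was -0.21 to 0.18.

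A list of 88 other guidance genes, made up of signalling proteins, cofactors and coreceptors downstream of or beside these receptors, had 57 members tested. In MyoD-/- against wild type 8 rose and 6 fell, with a median change of 0.07, and the share called, 24.6%, was near the 23.1% of all genes. Gap43, a growth cone protein, rose by 1.17 ± 0.09 (adjusted p = 1.47e-12) and Mical2, an actin-oxidising enzyme of a family that acts below plexins, by 1.49 ± 0.19 (adjusted p = 1.49e-07). Ntn5, a netrin-related protein, fell by 1.54 ± 0.16 (adjusted p = 9.18e-10). Dpysl4, a collapsin response mediator protein, the glypican Gpc1 and the actin-binding protein Ablim3 also fell, with changes of -0.79 ± 0.10, -0.47 ± 0.06 and -0.67 ± 0.11.

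In DnMaml;MyoD against MyoD-/- 6 of the 57 rose and 5 fell (19.3% against 11.9% of all genes), with a median change of -0.04. Gap43 rose by 0.97 ± 0.10, Ablim3 by 1.04 ± 0.12, the collapsin response mediator Dpysl3 by 0.98 ± 0.14 and the Rac effector kinase Pak3 by 0.63 ± 0.10, while Ntn5 stood at -1.74 ± 0.17 and Vav3 at -0.53 ± 0.09. In Rbpj;MyoD 12 rose and 12 fell (42.1% against 24.5%), with a median change of -0.04. Dpysl3 rose by 1.72 ± 0.15, Gap43 by 1.11 ± 0.11 and the neuropilin ligand Vegfa by 0.74 ± 0.10, while Dpysl5 stood at -2.08 ± 0.14, Ntn5 at -2.11 ± 0.18 and Vav3 at -1.24 ± 0.09. Directly between the mutants 4 were higher and 6 lower in Rbpj;MyoD (10 of 57, beside 6.79% of all genes).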

How the data were processed

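The members and gene lists were chosen with earlier results of these data known. Per the file headers and values, the deposited probe table held bead intensities not yet normalised, beside a detection p-value for each probe and array. Per the submitters' processing notes GenomeStudio 2010.1 was used. The authors' deposited value table held linear intensities with equal upper quantiles in all arrays and some values below 0, with array medians of 37.0 to 38.1. It served as an alternative after a floor of 16 and log2. The sources used here do not give its background and scaling steps.

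From the intensities, background was corrected with limma's neqc method (limma 3.58.1, R 4.3.3), which reads the detection p-values and was run with an offset of 16, followed by quantile normalisation and log2. Of 25697 probes 23978 had 1 gene symbol and 1719 none. Probes detected at a p-value under 0.01 in 4 or more arrays were kept, and the brightest probe stood for each gene. All 5 genotypes entered a single limma fit with chip as a term, and two-sided p-values were adjusted by Benjamini-Hochberg over 8658 genes, with a call at 0.05. Levels are log2 normalised intensities and are compared within a probe only. Precision is limited by how many arrays each genotype has. The procedure was tested on simulated data.

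Arrays of chips 6 and 7 were kept apart. Of these, 8 of 12 (66.7%) correlated best with their partner at the same position on the other chip, under the 75% required for joining them. Those 8 made up the 4 pairs of the same sex, which correlated at 0.43 to 0.63. The 2 pairs of different sex correlated at -0.14 and 0.05. Same-numbered arrays of different genotypes correlated at -0.52 to 0.44 (63 pairs), so numbers were not taken as pairs. Named genes are all members called in a comparison, with uncalled ones where a result turns on them, and for the wider list the 6 with the lowest p-values. Alternatives were other scalings, filters, probe rules, chip and sex terms, subsets of chips, and leaving out each array.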

Additional observations from a re-analysis of the deposited data

Results flagged for a closer look

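In 7 of 152 sets of 4 to 10 arrays of 1 genotype, the extreme array stood apart from the others by Dixon's 95% criterion, which chance meets in about 1 of 20 sets. In wild type, Efna5 reached 11.91 in replicate 4, the next array being 10.88, and Sema3c reached 5.66 in replicate 9 without detection. Unc5b was lowest in wild type replicate 6, at 5.40. In MyoD+/- replicate 3, Sema3c was highest, at 5.40, also without detection. Sema6b was lowest in DnMaml;MyoD replicate 5, at 7.91, and its rise against MyoD-/- stayed called with each array left out in turn. In Rbpj;MyoD, Unc5b was lowest in replicate 3, at 5.76, and Unc5c in replicate 1, at 5.59.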

How the results depend on the processing

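Of 44 member calls over the comparisons, 21 held under all alternatives that could test them and with every single array left out. The 21 include Sema3c in MyoD-/- against wild type, and Sema3b and Sema4f in Rbpj;MyoD against MyoD-/-, from whose stability nothing is read. With every single array left out 33 held. Leaving out 1 array gave 13 to 17 calls in MyoD-/- against wild type, 5 to 8 in DnMaml;MyoD and 12 to 16 in Rbpj;MyoD against MyoD-/-, 0 in MyoD+/-, and 4 to 7 between the compound mutants, where the 4 came without Rbpj;MyoD replicate 7. The last comparison also gave 4 calls under common-median scaling, on leaving out chip 2 and on leaving out chip 7. Over all genes these called 345, 437 and 316, against 588 in the reported fit. DnMaml;MyoD gave 11 calls on chips 4 to 7 only, and Rbpj;MyoD gave 9 among genes detected in at least 24 arrays. Over all genes these settings called 1713 and 1937, against 1026 and 2122 in the reported fit. The cause was not tested, except that the stricter filter tests fewer genes. Replicate numbers do not pair the arrays. A replicate block in place of chip gave 16 calls in MyoD-/- against wild type, 7 in DnMaml;MyoD, 12 in Rbpj;MyoD and 7 between the mutants. Over all genes it called 2216, 1416, 2608 and 513 in these comparisons. In MyoD+/- the block called 2 members and 447 of all genes, where the reported fit called 0 of either. The block turned the sign of Ntn4 (0.0610) and Robo4 (0.00774) in Rbpj;MyoD against MyoD-/-. Averages of the chip 6 and 7 partners, chosen as alternatives after seeing the data, kept 37 (6 pairs) and 39 (4 same-sex pairs) of the 44 calls. The authors' values kept 44, common-median scaling 35, a fit with no chip term 32 and the replicate block 32, with 10 lost and 2 reversed. The planned setting with every array as its own replicate is the fit reported here. Signals near background in at least 1 genotype limit what can be said of Sema3c, Sema3b, Sema4f, Ntn4, Unc5c, Epha1, Epha2, Epha7, Ephb1, Robo4 and Efna1. The same holds for genes not called, such as Nrp2, Plxnc1 and Epha8. Over all genes, common-median scaling called 1288, 513, 1521 and 345 genes in MyoD-/- against wild type, DnMaml;MyoD against MyoD-/-, Rbpj;MyoD against MyoD-/- and between the compound mutants, against 2003, 1026, 2122 and 588 under quantile normalisation.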

Other observations

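Sema4b and Sema7a, both membrane-tethered semaphorins, spread widely among the DnMaml;MyoD arrays, and by chip. For Sema4b the 4 arrays of chips 1 and 2 read 11.77, 11.89, 11.72 and 12.09, and those of chips 4 to 7 read 10.98, 10.06, 9.65 and 9.62. For Sema7a the values were 8.59, 8.58, 8.62 and 8.40, and then 8.07, 6.17, 6.73 and 6.24. Against MyoD-/- on the same chips Sema4b differed by 0.55 on chips 1 and 2 and by -0.93 on chips 4 to 7, and Sema7a by 1.04 and -0.75. The test of these differences between chip sets in limma did not pass (adjusted p = 0.182 and 0.188). Of 38 members 0 passed it, and of all 8658 genes 1 passed. At an unadjusted p under 0.05 there were 8 members. All genes were not counted at that level, so nothing is read from the 8.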
